A study of Mus musculus with 6 samples.

Results

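The cytochrome P450 enzymes of families 1 to 4 were examined as the features whose platform annotation gives 1 gene symbol made of Cyp, a digit 1 to 4, a letter and a gene number. The rule found 87 features of 59 genes among the 41230 features with a value, and all 87 carried a value on every array. Cyp2ab1 and Cyp4f41-ps fall outside the symbol pattern, and Cyp2u1 was not analysed here. Features of a gene are numbered from the lowest effect to the highest, so that Cyp2c40 feature 1 is the lower of its pair.

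P450 enzymes are haem proteins of the endoplasmic reticulum that insert an oxygen atom into their substrates, with electrons passed on by P450 reductase and cytochrome b5. Families 1 to 3 oxidise drugs, pollutants, steroids and polyunsaturated fatty acids, and family 4 mainly hydroxylates fatty acids and eicosanoids at their far end. In the liver they are abundant in mature hepatocytes and their genes are known targets of ligand-activated receptors (the aryl hydrocarbon receptor, CAR, PXR and PPAR alpha) and of the liver factor HNF4 alpha.

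MMH cells labelled Prox1, for a homeobox transcription factor, were set against MMH cells labelled with the empty expression vector pCDNA3.1, and both RNAs were hybridised together on each of 6 two-colour arrays. The labels describe MMH as Met murine hepatocytes and carry the tag ED14, under a series title that names murine hepatoblasts. They do not give the promoter that drives Prox1, the number of clones, or whether the arrays hold separate cultures. The p-values then cover only the spread between these arrays, which may be technical. Prox1 RNA carried Cy5 on replicates 1 to 3, the Cy5 arrays, and Cy3 on replicates 4 to 6. RNA was isolated with RNeasy columns, except with Trizol for replicate 4, and amplified by PCR before labelling. The columns of replicates 4, 5 and 6 hold the same value for every feature (0 differences), so they enter once, as the Cy3 profile, beside the 3 Cy5 arrays.

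Each deposited value is a ratio of both RNAs scaled by the authors to a standard deviation (SD) of 1 over all features of an array. It is called a score here and is given in SD units, and it is not a fold change. Of 3 Prox1 features, 1 had scores of 5.44, 5.22 and 5.17 on the Cy5 arrays and 6.60 in the Cy3 profile, at ranks 3, 4, 6 and 6 from the top. The other Prox1 features lay between −0.38 and 0.55. A positive score is therefore read as higher with Prox1. That direction is likely and the labels do not settle it. The scores of both orientations correlated at r = 0.397 to 0.444 across features, and those of the Cy5 arrays among themselves at 0.915 to 0.930.

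Hepatocyte identity could be checked only as a ratio, since no signal levels were analysed here. Of 15 features of hepatocyte markers, 3 were called lower with Prox1 (albumin, Alb, at −5.17 ± 0.54, transferrin, Trf, at −5.71 ± 0.32, and 1 Apob feature) and 0 higher, with a median effect of −0.71 and a range of −5.71 to 0.53. Of 11 cholangiocyte marker features 1 was called lower (Krt19, at −3.47), with a median of 0.14. Of 22 stellate cell and fibroblast features 1 was called lower (Acta2) and 1 higher (Dcn), and of 18 macrophage and endothelial features 0 were called. Over all features 4.58% were called lower and 3.08% higher, by the test described next, so that 1 call among 11 or 22 features is near what the whole array gave. The part of these shifts in the P450 values was not tested. In such bulk RNA, fewer cells that express a gene and less RNA per cell cannot be told apart.

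The effect of Prox1 was fitted for every feature with limma, with the dye orientation as a random block, and a feature was called at a Benjamini-Hochberg adjusted p under 0.05 over all 41230 features. Among the P450 features 14 of 87 (16.1%), from 13 genes, were called lower with Prox1, where 4.58% of all features were. Only 2 P450 features (2.30%) were called higher, against 3.08% of all features. The lower calls gathered in Cyp2c (6 of 13 features), Cyp2j (3 of 10), Cyp3a (2 of 8), and 1 feature each of Cyp2d, Cyp4a and Cyp4b. Both higher calls were in Cyp2a. The 5 features of family 1 gave no call, with effects from −0.058 to 0.037.

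The calls were a minority of features with large effects, and the family as a whole leaned lower by a smaller amount. The median effect was −0.20 over the P450 features and 0.04 over all features. Effects below 0 were found for 59 of 87 P450 features and for 18686 of 41230 in all. Effects below −3 were found for 12 of 87 P450 features (13.8%) and for 420 of 41230 in all (1.02%), and effects above 3 for 0 P450 features and 74 in all. Of the lowest 412 features in each orientation, 256 were in that set in both orientations, and 11 of them were P450 features. The P450 features are not independent of each other, since related genes share sequence.

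**Figure D1:**
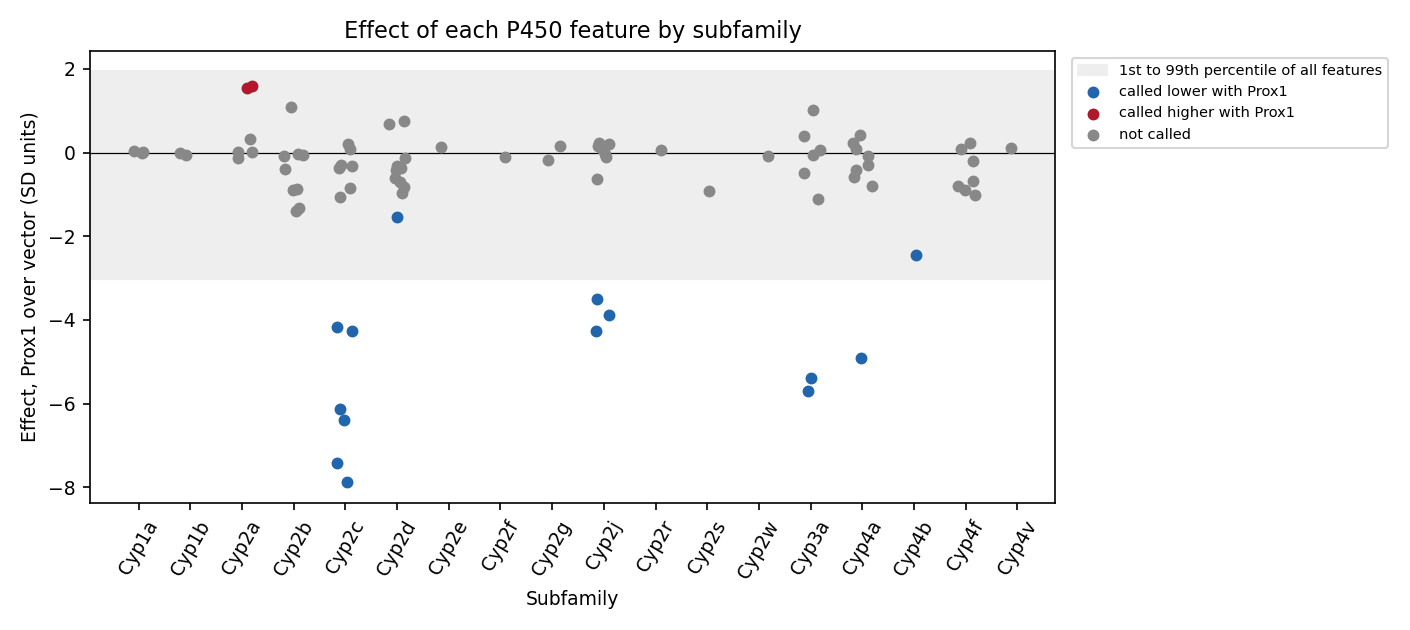
Effect of Prox1 over vector for each of the 87 P450 features (points, SD units), by subfamily, with the span between the 1st and 99th percentile of all features in grey (−3.02 to 1.94). The points far below the grey span belong to Cyp2c, Cyp2j, Cyp3a and Cyp4a, and the 2 higher calls are in Cyp2a.

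The Cyp2c enzymes, which turn arachidonic acid into epoxides and hydroxy acids and oxidise many drugs, held the lowest P450 values. Cyp2c40 feature 1 had scores of −7.93, −8.09 and −7.79 on the Cy5 arrays and −7.80 in the Cy3 profile. Its effect was −7.88 ± 0.24 (SE; adjusted p = 0.000366), rank 7 from the bottom of the whole array. The second Cyp2c40 feature had −4.08, −4.12 and −3.998 on the Cy5 arrays and −4.31 in the Cy3 profile (effect −4.18 ± 0.22, adjusted p = 0.000695). Cyp2c40, an arachidonic acid hydroxylase, was the only P450 gene with more than 1 feature that was called lower in all of them. Cyp2c29, an abundant epoxygenase of mouse liver, had −7.59, −8.07 and −8.16 on the Cy5 arrays and −6.81 in the Cy3 profile, an effect of −7.41 ± 0.40 (adjusted p = 0.000752). Both orientations thus gave low values, the Cy5 arrays the lower ones for Cyp2c29.

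Cyp2c66 had −6.24, −6.20 and −5.89 on the Cy5 arrays and −6.72 in the Cy3 profile (effect −6.39 ± 0.29, adjusted p = 0.000558). Cyp2c39, known as a retinoic acid hydroxylase, had −4.76, −4.90 and −4.26 on the Cy5 arrays and −3.84 in the Cy3 profile (effect −4.27 ± 0.39, adjusted p = 0.00299). Cyp2c37 feature 1 had −5.95, −6.40 and −6.31 on the Cy5 arrays and −6.01 in the Cy3 profile (effect −6.12 ± 0.29, adjusted p = 0.000628). All 3 genes were low on every array, but the second Cyp2c37 feature was near 0, at 0.62, 0.46 and 0.39 on the Cy5 arrays and −0.10 in the Cy3 profile. That feature has the highest effect of the subfamily, 0.21 ± 0.26.

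The remaining Cyp2c genes did not pass. The epoxygenase Cyp2c38, a close relative of Cyp2c39, had effects of −0.30 and 0.08 on its features. Cyp2c70, which makes the muricholic acids of mouse bile, was at −0.32 and Cyp2c23 at −0.37. Cyp2c55 had −1.57, −2.01 and −1.98 on the Cy5 arrays and −0.15 in the Cy3 profile. Cyp2c54 had −1.64, −1.99 and −2.06 on the Cy5 arrays and 0.37 in the Cy3 profile. For Cyp2c54 and Cyp2c55 the low values came from the Cy5 orientation alone.

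**Figure D2:**
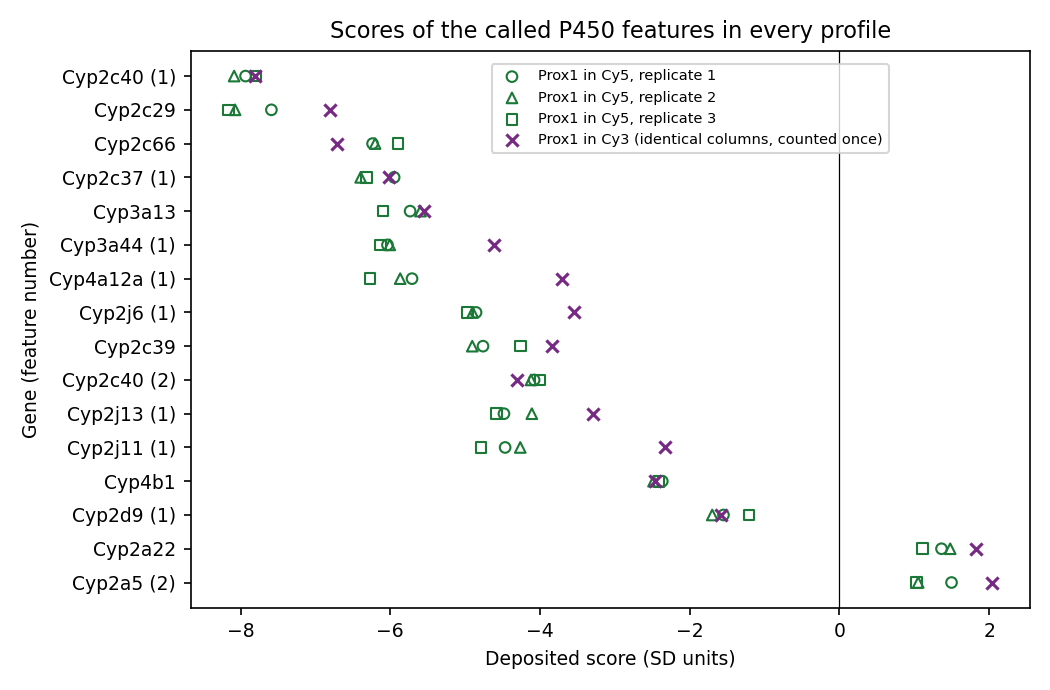
Deposited scores (SD units) of the 16 called P450 features in the 3 Cy5 arrays (open symbols) and the Cy3 profile (crosses), ordered by effect with the feature number in brackets. Every called feature has 1 sign in all 4 profiles, and the orientations lie furthest apart for Cyp4a12a and Cyp2j11.

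Promoter windows from RefSeq (GRCm38.p6), running from 250 bases before to 50 after an annotated start, were at hand for 48 of the 59 genes (54 windows). They were searched on both strands for CAAAGTC (part of an HNF4 site), GTTAAT (part of an HNF1 site), TGTTTAC (forkhead) and GCGTG (core of the aryl hydrocarbon receptor site). No motif contains another. CAAAGTC was in 15 of the 54 P450 windows (27.8%) and in 4.44% of all 32851 windows. For the other motifs the shares were 9.26% against 7.10% for GTTAAT, 14.8% against 3.65% for TGTTTAC and 22.2% against 32.4% for GCGTG. Windows of related genes share sequence (those of Cyp3a16 and Cyp3a41a are identical at 93.3% of 300 bases). The P450 windows counted here are therefore not separate observations. Among genes with a lower feature, 6 of 14 windows (42.9%) held CAAAGTC, against 9 of 40 windows (22.5%) of the other P450 genes. All 6 were Cyp2c windows, with both windows of Cyp2c39 counted. Outside Cyp2c no gene with a lower feature and a window held it (Cyp2d9, Cyp2j6, Cyp2j11, Cyp2j13, Cyp3a13, Cyp3a44 and Cyp4b1). Cyp4a12a, which also had a lower feature, had no window and was not searched. Genes outside Cyp2c that held it had no lower feature (Cyp2a4, Cyp2a5, Cyp2b9, Cyp2b13, Cyp3a11, Cyp3a16, Cyp3a41a and Cyp4f18).

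Within Cyp2c all 5 genes with a lower feature held CAAAGTC (Cyp2c29, Cyp2c37, Cyp2c39, Cyp2c40 and Cyp2c66). Of the 3 Cyp2c genes with a window and no lower feature, Cyp2c70 held it and Cyp2c38 and Cyp2c55 did not. Windows of different Cyp2c genes were identical at 52% to 82% of 300 bases, so these genes are not separate observations either. Shown are the pair with the lowest effects and the pair of close relatives that differ in effect. The windows are chr19:39812765-39813064 on the minus strand for Cyp2c40, chr19:39286835-39287134 on the plus strand for Cyp2c29, chr19:39347096-39347395 on the plus strand for Cyp2c39 and chr19:39463026-39463325 on the minus strand for Cyp2c38. Capitals mark any of the 4 motifs on either strand.
Cyp2c40: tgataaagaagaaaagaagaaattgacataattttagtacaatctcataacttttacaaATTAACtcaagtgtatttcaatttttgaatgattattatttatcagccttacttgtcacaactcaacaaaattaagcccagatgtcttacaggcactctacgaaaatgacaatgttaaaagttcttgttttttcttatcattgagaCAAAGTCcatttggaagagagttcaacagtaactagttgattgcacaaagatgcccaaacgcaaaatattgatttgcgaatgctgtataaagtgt
Cyp2c29: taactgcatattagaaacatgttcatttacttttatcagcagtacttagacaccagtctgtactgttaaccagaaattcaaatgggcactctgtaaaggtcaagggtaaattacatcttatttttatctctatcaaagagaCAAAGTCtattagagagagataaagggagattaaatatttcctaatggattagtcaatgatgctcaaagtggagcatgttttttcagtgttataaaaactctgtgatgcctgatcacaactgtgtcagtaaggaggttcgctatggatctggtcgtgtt
Cyp2c39: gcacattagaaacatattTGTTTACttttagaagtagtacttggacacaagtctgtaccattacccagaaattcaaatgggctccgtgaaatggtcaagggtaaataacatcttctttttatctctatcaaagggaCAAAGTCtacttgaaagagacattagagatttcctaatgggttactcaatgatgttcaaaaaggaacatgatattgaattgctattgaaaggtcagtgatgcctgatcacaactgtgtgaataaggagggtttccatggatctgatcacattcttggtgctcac
Cyp2c38: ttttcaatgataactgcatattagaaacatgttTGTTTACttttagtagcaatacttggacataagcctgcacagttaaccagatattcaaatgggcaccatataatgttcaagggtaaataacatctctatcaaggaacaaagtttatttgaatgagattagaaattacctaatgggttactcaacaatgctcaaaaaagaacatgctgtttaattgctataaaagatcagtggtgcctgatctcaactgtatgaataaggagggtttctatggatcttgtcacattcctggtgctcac
The Cyp2c39 and Cyp2c38 windows are identical at 246 of 300 aligned bases (82%). Opposite the CAAAGTC of Cyp2c39, counted from 1 at the first base of its window, Cyp2c38 differs by C143T. Cyp2c39 has a second annotated start whose window (chr19:39510572-39510871, plus strand) also holds CAAAGTC. That window is identical to the Cyp2c38 window at 239 of 300 aligned bases (79.7%), and opposite its CAAAGTC Cyp2c38 differs by C171T. By coordinates the Cyp2c38 window lies between both Cyp2c39 windows. Which Cyp2c39 start made the measured RNA was not tested.

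The Cyp3a genes did not repeat this arrangement. The Cyp3a enzymes, the main drug and steroid oxidases of liver, had lower calls in Cyp3a13 and Cyp3a44, whose windows hold no CAAAGTC, while those of Cyp3a11, Cyp3a16 and Cyp3a41a hold it and had no called feature. Shown are Cyp3a44 (chr5:145805825-145806124, minus strand) and its near copy Cyp3a16 (chr5:145469674-145469973, minus strand), identical at 284 of 300 bases (94.7%), with capitals as above.
Cyp3a44: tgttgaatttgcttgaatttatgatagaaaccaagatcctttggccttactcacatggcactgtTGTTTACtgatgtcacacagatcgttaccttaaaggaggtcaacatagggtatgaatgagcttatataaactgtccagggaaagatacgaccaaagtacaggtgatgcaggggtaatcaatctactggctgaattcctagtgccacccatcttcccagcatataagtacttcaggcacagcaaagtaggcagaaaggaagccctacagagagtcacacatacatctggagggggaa
Cyp3a16: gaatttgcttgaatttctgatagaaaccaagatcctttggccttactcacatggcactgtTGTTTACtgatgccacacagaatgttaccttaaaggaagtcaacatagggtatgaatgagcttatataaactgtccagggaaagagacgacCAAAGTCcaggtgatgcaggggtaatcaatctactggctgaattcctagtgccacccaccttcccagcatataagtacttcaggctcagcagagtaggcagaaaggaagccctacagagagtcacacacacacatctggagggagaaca
Counted in the Cyp3a16 window, Cyp3a44 differs in this motif by C158A. A match describes letters only, and no binding was measured.

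Cyp3a13 had −5.73, −5.60 and −6.10 on the Cy5 arrays and −5.56 in the Cy3 profile, an effect of −5.69 ± 0.31 (adjusted p = 0.000752). Cyp3a44 feature 1, of a gene with female-biased expression in adult mouse liver, had −6.04, −6.01 and −6.13 on the Cy5 arrays and −4.61 in the Cy3 profile (effect −5.39 ± 0.36, adjusted p = 0.00119). Its second feature was at −0.048 ± 0.21. Cyp3a16, a P450 of fetal mouse liver, had −1.92, −1.91 and −1.73 on the Cy5 arrays but −0.26 in the Cy3 profile, and was not called (effect −1.12, adjusted p = 0.171). Cyp3a11, the main Cyp3a of adult mouse liver and a PXR target, was at 0.39 ± 0.36 (adjusted p = 0.740). Cyp3a41a had the highest effect of the subfamily, 1.02 ± 0.24 (adjusted p = 0.0558).

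The Cyp2j enzymes are arachidonic acid epoxygenases found in many tissues, and 3 of their 5 genes had a lower feature. Cyp2j6 feature 1 had −4.85, −4.90 and −4.97 on the Cy5 arrays and −3.54 in the Cy3 profile (effect −4.27 ± 0.35, adjusted p = 0.00208). Cyp2j13 feature 1 had −4.48, −4.11 and −4.58 on the Cy5 arrays and −3.29 in the Cy3 profile (effect −3.88 ± 0.37, adjusted p = 0.00353). Cyp2j11 feature 1 had −4.47, −4.26 and −4.79 on the Cy5 arrays and −2.32 in the Cy3 profile (effect −3.49 ± 0.53, adjusted p = 0.0154). All 3 features were lower on the Cy5 arrays than on the Cy3 profile. Without replicate 1 or replicate 2 the Cyp2j11 call was lost (adjusted p = 0.0526 and 0.0503). The other features of these genes were between −0.63 and 0.24, and Cyp2j5 and Cyp2j9 between −0.094 and 0.22, all uncalled.

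In family 4, Cyp4a12a feature 1 had −5.71, −5.87 and −6.27 on the Cy5 arrays and −3.70 in the Cy3 profile (effect −4.91 ± 0.55, adjusted p = 0.00579). Cyp4a12a makes a vasoactive hydroxy fatty acid in mouse kidney. Its second feature was at 0.22 ± 0.31. Cyp4b1, known for activating furan toxins in lung, had −2.37, −2.48 and −2.41 on the Cy5 arrays and −2.46 in the Cy3 profile. The 4 values lay closer together than those of most called features (effect −2.44 ± 0.21, adjusted p = 0.00259). The PPAR alpha targets Cyp4a10 and Cyp4a14 were not called. Cyp4a10 had effects of −0.79, −0.29 and −0.080, and Cyp4a14 had 1.02, 1.19 and 1.28 on the Cy5 arrays and −0.45 in the Cy3 profile. Cyp4f, which inactivates leukotrienes, had 7 features and no call, from Cyp4f18 at −1.02 ± 0.23 (adjusted p = 0.0529) to Cyp4f39 at 0.23 ± 0.26. Cyp4v3 was at 0.098 ± 0.40.

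Calls in the remaining family 2 genes were smaller. Cyp2d9 feature 1, of a testosterone hydroxylase typical of male mouse liver, had −1.55, −1.70 and −1.21 on the Cy5 arrays and −1.58 in the Cy3 profile (effect −1.53 ± 0.30, adjusted p = 0.0332). The call was lost without replicate 1 or 2 (adjusted p = 0.0888 and 0.0672) and when the features of a gene were averaged (0.0552). The second Cyp2d9 feature was at −0.32. Cyp2d22, held to be the mouse gene nearest in role to human CYP2D6, had effects of −0.97, −0.12 and 0.68, none called. Cyp2d26 had the highest effect of the subfamily, 0.76 ± 0.37, made of 0.039, −0.017 and 0.12 on the Cy5 arrays and 1.58 in the Cy3 profile.

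Cyp2a was the subfamily with higher values. Cyp2a22 had 1.36, 1.48 and 1.11 on the Cy5 arrays and 1.82 in the Cy3 profile (effect 1.55 ± 0.28, adjusted p = 0.0263). Cyp2a5 feature 2, of the coumarin hydroxylase of mouse liver, had 1.498, 1.05 and 1.03 on the Cy5 arrays and 2.03 in the Cy3 profile (effect 1.58 ± 0.35, adjusted p = 0.0474). Both features were above 0 on every array, yet both calls were lost without replicate 1 (adjusted p = 0.0762 for Cyp2a22 and 0.0828 for Cyp2a5) and without replicate 2 (0.0663 and 0.0927). Cyp2a5 was also lost without replicate 3 (0.0937) and with column medians set to 0 (0.0545). The first Cyp2a5 feature was at 0.33 ± 0.25, and Cyp2a4, a steroid hydroxylase, and Cyp2a12 lay between −0.12 and 0.011.

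Cyp2b, whose member Cyp2b10 is the classic CAR target of mouse liver, had 9 features and no call. The effect was below 0 for 8 of them, but only 4 were below 0 in every profile. Cyp2b10 feature 1 had −1.60, −1.78 and −1.11 on the Cy5 arrays and −1.29 in the Cy3 profile (effect −1.40 ± 0.36, adjusted p = 0.0771). In the fit of gene means, where the features of each gene were averaged, Cyp2b10 passed at −1.15 ± 0.23 (adjusted p = 0.0324). In that fit genes with 1 feature, not called by feature, passed too. They were Cyp2s1 (adjusted p = 0.0368) and Cyp4f18 (0.0387) as lower and Cyp3a41a (0.0415) as higher. Cyp2b13 feature 1 was at −1.33 (adjusted p = 0.0519), and Cyp2b19 feature 2, of an epidermal epoxygenase, at 1.09 ± 0.35 (adjusted p = 0.141). Cyp2s1, a P450 of epithelia, had −0.85, −0.88 and −0.83 on the Cy5 arrays and −0.97 in the Cy3 profile and just missed the threshold (effect −0.91 ± 0.21, adjusted p = 0.0544). The ethanol oxidase Cyp2e1 (0.13), the vitamin D hydroxylase Cyp2r1 (0.052), Cyp2f2 (−0.12), Cyp2w1 (−0.085) and both Cyp2g1 features (−0.18 and 0.16) were near 0.

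Family 1, the targets of the aryl hydrocarbon receptor, was near 0 as well. Cyp1a1 had −0.056, −0.051 and −0.14 on the Cy5 arrays and 0.17 in the Cy3 profile, an effect of 0.037 ± 0.22. The Cyp1a2 features were at −0.012 and 0.0079, and the Cyp1b1 features at −0.058 and −0.011. Whether these genes were above background was not analysed here, so a score near 0 does not show that a transcript was present at equal levels.

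Features of 1 gene often disagreed. Of the 25 P450 genes with more than 1 feature, 1 was called lower in all, 7 in some, and 16 had no call. The remaining gene, Cyp2a5, had 1 feature called higher. The effects of a gene's features spanned over 3 SD units in 7 of the 25 genes (28%), against 151 of 8251 genes in all (1.83%). The median span was 0.80 in the P450 genes and 0.51 in all genes. The 7 genes are Cyp2c37, Cyp2c40, Cyp2j6, Cyp2j11, Cyp2j13, Cyp3a44 and Cyp4a12a. Cyp2c40 is among them although both of its features were called lower. Effects below −3 were also more frequent among P450 features (13.8%, against 1.02% of all), and their part in these spans was not tested. Which transcripts, or which of several near-identical paralogs, a feature binds is not known here. The gene named for a feature is therefore uncertain in subfamilies with several genes, among them Cyp2a, Cyp2b, Cyp2c, Cyp2d, Cyp2j, Cyp3a and Cyp4a.

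**Figure D3:**
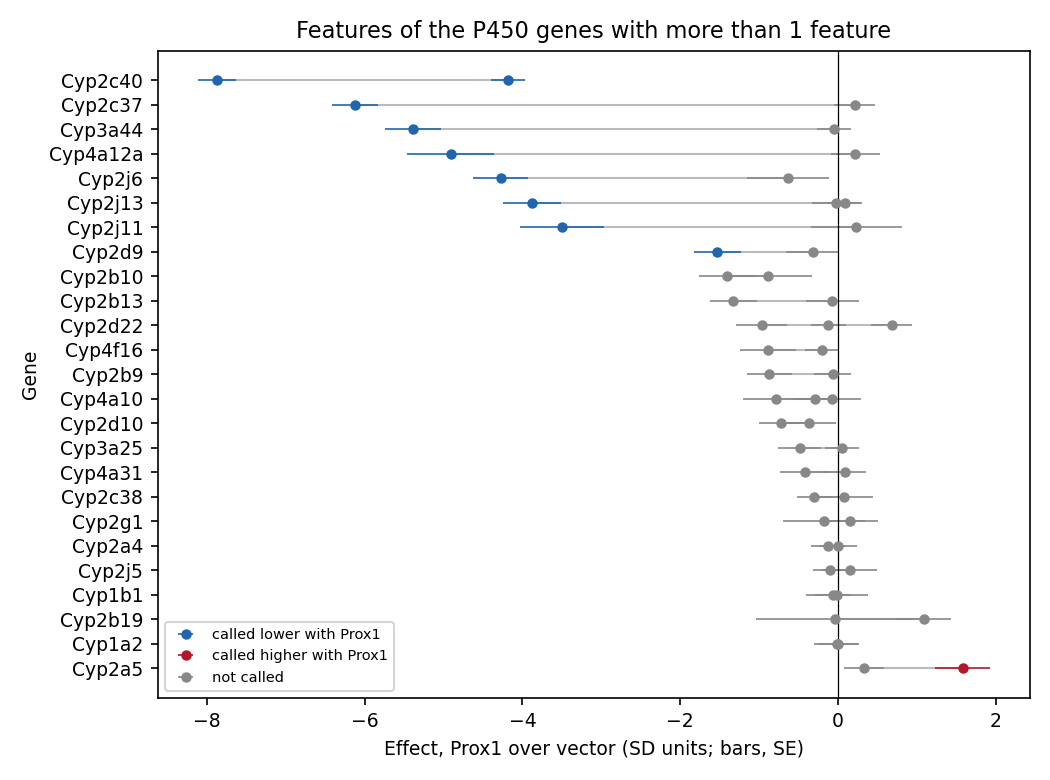
Effects of the single features (points, SD units, with SE bars) of the 25 P450 genes with more than 1 feature, joined by a grey line for each gene. Cyp2c40 is low on both features, while Cyp2c37 has 1 feature at −6.12 and the other at 0.21.

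The orientations gave opposite signs for 33 of 87 P450 features (37.9%) and for 47.3% of all features. All 4 profiles had 1 sign in 42 of 87 P450 features (48.3%), 36 of them negative. Over all features it was 16938 of 41230 (41.1%), 8007 of them negative. Among the Cy5 arrays the median SD of a feature was 0.154, while the difference between the orientations had an SD of 1.06 over all features. Cyp2d12 shows the contrast, with 0.18, 0.79 and 0.44 on the Cy5 arrays and −2.31 in the Cy3 profile. Cyp2b19 feature 1 had 1.53, 2.02 and 0.19 on the Cy5 arrays and −1.53 in the Cy3 profile. When the orientation was fitted as a dye term, which leaves that difference out of the error, 39 P450 features were called lower and 8 higher, where 19.7% of all features were called lower and 25.4% higher. All 14 lower and both higher calls were among them.

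**Figure D4:**
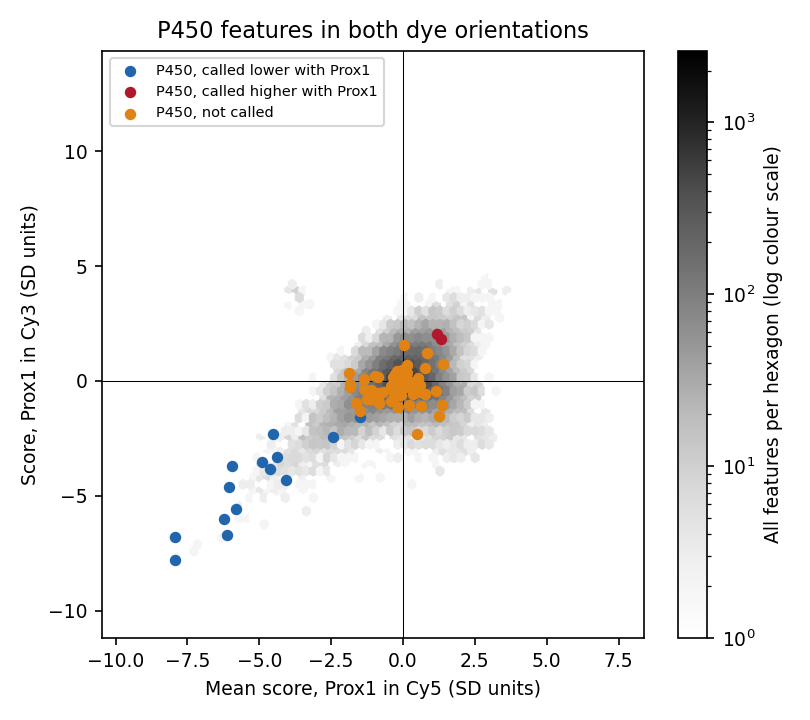
Mean score of the 3 Cy5 arrays (x axis, SD units) against the score in the Cy3 profile (y axis, SD units) for the 87 P450 features over all 41230 features (hexagons, log colour scale). The features called lower run along the lower left of the plot, and the uncalled P450 features gather near the centre.

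The P450 genes lie in clusters, and the calls were unevenly spread over them in RefSeq's gene order, taken by the first base of each gene. Only the P450 genes with a feature here were ordered. Genes that stand next to each other in this order may have others between them. On chromosome 19 the order was Cyp2c55, Cyp2c66, Cyp2c29, Cyp2c39, Cyp2c38, Cyp2c40, Cyp2c37, Cyp2c54, Cyp2c70 and Cyp2c23, and 5 of these 10 genes had a lower feature. They ran from Cyp2c66 to Cyp2c37 with Cyp2c38 between them. Cyp2c39 stands before Cyp2c38 by its first annotated start, while its second start lies past that of Cyp2c38. On chromosome 4 Cyp2j13, Cyp2j11 and Cyp2j6, adjacent in this order, had lower features, as did Cyp4a12a and Cyp4b1, which makes 5 of 11 genes. On chromosome 5 it was 2 of 7 genes (Cyp3a13 and Cyp3a44), on chromosome 15 1 of 7 (Cyp2d9), and on chromosome 7, with Cyp2a, Cyp2b and 5 other subfamilies, 0 of 14 genes and 0 of 21 features. Neighbouring paralogs resemble each other, so adjacent features are not separate measurements of a cluster.

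**Figure D5:**
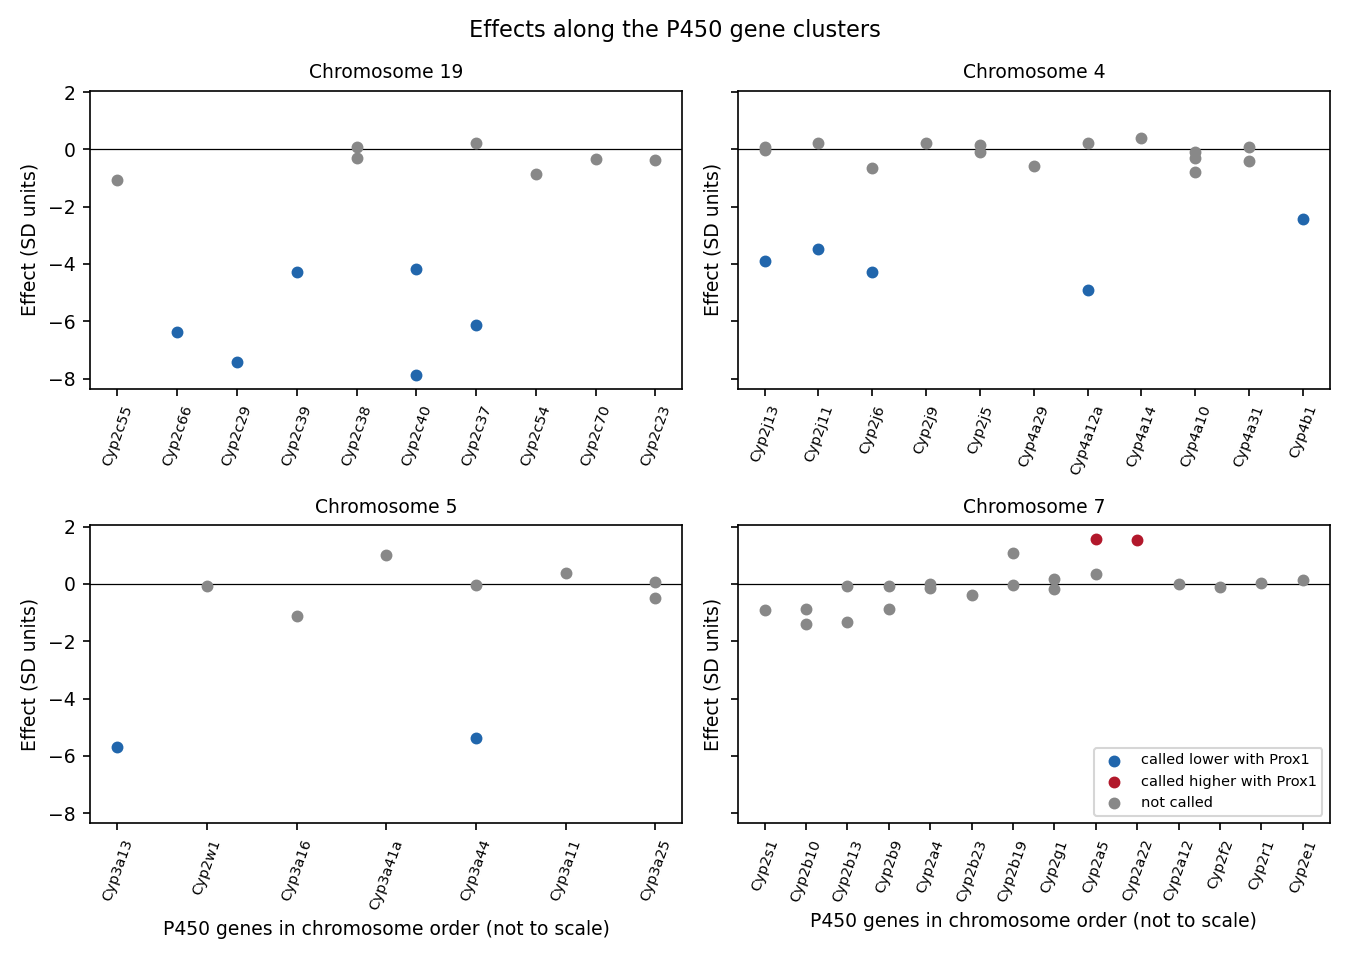
Effects of single features (SD units) with the P450 genes of chromosomes 19, 4, 5 and 7 in gene order, not to scale and without genes that have no feature here. On chromosome 19 the low features run from Cyp2c66 to Cyp2c37, and on chromosome 7 no feature was called lower.

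Known regulators of P450 genes gave 7 lower calls among 42 features (16.7%, against 4.58% of all features) and 0 higher calls (3.08% of all features). Hnf4a, which encodes HNF4 alpha, had −4.83, −4.58 and −4.67 on the Cy5 arrays and −4.52 in the Cy3 profile on feature 1 (effect −4.61 ± 0.23, adjusted p = 0.000684). Its second feature was called at −4.11 ± 0.25 and the third was at −0.15 ± 0.26, not called. The bile acid receptor Nr1h4 (−2.90, adjusted p = 0.00419) and the oxysterol receptor Nr1h3 (−2.70, 0.00463) were also called lower. Nearer the threshold were the lower calls of Foxa3 (−1.67, adjusted p = 0.0417), the aryl hydrocarbon receptor Ahr (−1.40, 0.0231) and the clock output factor Dbp (−1.17, 0.0452). Foxa3 and Dbp are named after their values were seen. The Ahr call was lost without any 1 of the Cy5 arrays (adjusted p = 0.0647 to 0.0690), and the regulators had 4 lower calls without replicate 1 or 2 and 5 without replicate 3. The receptors known to drive Cyp3a, Cyp2b and Cyp4a were not called, with PXR (Nr1i2) at 0.28 ± 0.27, CAR (Nr1i3) at 0.25 ± 0.29 and PPAR alpha (Ppara) at −0.39 ± 0.23.

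Among 28 features of electron donors and haem supply, 2 were called lower (7.14%) and 1 higher (3.57%), near the shares of all features (4.58% and 3.08%). Cytochrome b5 (Cyb5a) was at −2.04 ± 0.33 (adjusted p = 0.0189) and the cytochrome b5 reductase Cyb5r3 at −1.41 ± 0.25 on 1 feature (adjusted p = 0.0248), while Cyb5r1 was called higher at 2.39 ± 0.28 on 1 feature (adjusted p = 0.00646). The Cyb5r3 call was lost without any 1 of the Cy5 arrays (adjusted p = 0.0687 to 0.0725), and that of Cyb5a without replicate 2 or 3 (0.0595 and 0.0630). Por, the P450 reductase gene, was not analysed here. Of 27 features of other P450 families, 2 of the 3 of Cyp51, the sterol demethylase of cholesterol synthesis, were called lower (−4.12 ± 0.23 and −3.56 ± 0.21), while the other was at −1.73 ± 0.40 (adjusted p = 0.0536). In the same list 1 Cyp27b1 feature, of the vitamin D activating enzyme of kidney, was called higher (1.75 ± 0.31), and that call was lost without replicate 1 or 2 (adjusted p = 0.0717 and 0.0598). The share of lower calls was 7.14% of donor and haem features, 16.7% of regulator features and 7.41% of features of other P450 families, beside 16.1% of features of families 1 to 4 and 4.58% of all features.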

How the data were processed

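Per the labels' protocols, total RNA was treated with DNase I, transcribed, amplified by PCR stopped before saturation, and labelled. The deposited values are scores, signed ratios of both channels that the authors scaled to an SD of 1 per column. The scanner, background correction, normalization, log base and signal strength are not stated by any source read here. The analysis planned for log ratios was run on these scores as deposited. The number of arrays limits the precision.

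Of 44290 features 41230 had a value. Symbols came from the platform annotation of 2016, updated by gene identifier against RefSeq GRCm38.p6, and all 87 P450 features were matched. The files name no genome build. limma 3.58.1 (R 4.3.3) fitted an intercept, the effect of Prox1, to the 4 distinct profiles, and treated the dye orientation as a random block (correlation 0.796 by duplicateCorrelation). Moderation was by empirical Bayes, and p-values were adjusted over all features by Benjamini-Hochberg, with a threshold of 0.05. The procedure was tested on simulated data. Named genes are the called P450 features, the lowest and highest feature of each subfamily, a list of well-known P450 genes and, from each other list, the features with the lowest p and set regulators. The members, lists and models were chosen with earlier results of these data known. Alternatives were a dye term, no block, Cy5 arrays alone, gene means, column medians at 0, each Cy5 array left out, and identical columns entered singly. Promoter windows are from RefSeq and were aligned globally.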

Additional observations from a re-analysis of the deposited data

How the results depend on the processing

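All 14 lower P450 calls were kept with a dye term, without a block and with the Cy5 arrays alone. These models called many more features over the whole array, so a call was unlikely to be lost in them. All 14 were also kept with column medians at 0, with the identical columns entered singly and without replicate 3. Cyp2d9 was lost with gene means, and Cyp2d9 and Cyp2j11 were lost without replicate 1 and without replicate 2. The fits without a replicate kept the consensus correlation of all 4 profiles, since 3 are too few to estimate it, and leave the lone Cy3 profile in place.

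P450 features called lower numbered 39 with the dye term, 28 without a block and 37 with the Cy5 arrays alone, and those called higher 8, 5 and 18. Higher calls were 1 with column medians at 0 and 0 to 1 without a replicate, and lower calls 12 to 14. With gene means 15 of 59 P450 genes were called lower and 3 higher, Cyp3a41a among the latter. Over all features, lower calls were 8113, 4829 and 10268 in the same 3 models and 1047 to 1126 without a replicate, and higher calls 10491, 4695 and 13715, then 408 to 498, with 2338 when identical columns were entered singly. Donor and haem features called lower were 9, 5 and 9, then 0 to 1 without a replicate. Called higher they were 10, 5 and 8, with 2 entered singly. Regulators called lower were 18, 12 and 21, then 4 to 5 without a replicate. Called higher they were 5, 3 and 8, with 1 entered singly. Other P450 families called lower were 8, 4 and 8, and 1 with gene means, where the 3 Cyp51 features became 1. Called higher they were 5, 3 and 8, then 0 to 1 without a replicate. The dye term and the Cy5 arrays alone leave the difference between orientations out of the error. The cause of the other changes was not tested.

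Signs turned mostly for features near 0. Without a block the effect was −0.017 for Cyp1a1, 0.023 and −0.029 for Cyp1a2 features 1 and 2, 0.016 for Cyp1b1 feature 1, 0.19 for Cyp2g1 feature 1 and 0.00029 for Hnf4a feature 3. With the Cy5 arrays alone these were −0.081, 0.064, −0.073, 0.10, 0.62 and 0.17, and Cyp2w1 was at 0.015. With gene means the feature that was above 0 took its gene's value, −2.95 for Cyp2c37, −1.63 for Cyp2j11, −0.13 for Cyp2d22, −0.0083 for Cyp2g1 and −0.0020 for Cyp1a2. Column medians at 0 gave −0.013 for Cyp1a2 feature 2. The dye term gave 0.012 for Cyp1b1 feature 2, as did entering identical columns singly. With each Cy5 array left out in turn, Cyp1a2 feature 1 ranged from −0.083 to 0.024, Cyp1a2 feature 2 from −0.024 to 0.060, Cyp1b1 feature 2 from −0.091 to 0.096, Cyp2e1 from −0.0024 to 0.22 and Cyp4a10 feature 3 from −0.18 to 0.016.

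No alternative for background, normalization or dim features was run, and how far any feature stood above background is not known. No paired analysis was possible because each array already holds both RNAs and the replicate numbers differ between the orientations.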
